A study of Mus musculus with 12 samples.

Results

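The microRNA miR-10a was followed through both strands of its hairpin, miR-10a-5p and miR-10a-3p, in cultured smooth muscle cells of the mouse aorta (MASMC). The 10 probes followed here belong to a small RNA array and were chosen by their identifiers, 5 for each strand, out of 9709 probes for miRNAs and 14192 small RNA probes in all. The rule itself used identifiers only, but it was set with earlier results of these data known. Probe names also come from lists of changed miRNAs that the study drew from the same arrays. A change of miR-10a on these arrays is therefore not independent of the reason it was chosen or could be named.

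The 12 arrays formed 4 groups of 3. MASMC are primary cells grown out from the aortic wall, and all groups were held in serum-free medium. In the siNT-DMSO and siNT-POVPC groups the cells received a non-target siRNA for 48 h, and in the siOCT4-DMSO and siOCT4-POVPC groups an siRNA against Oct4 for 48 h. This was followed by 24 h of 10 µg/mL POVPC, an oxidized phospholipid, or of its vehicle DMSO. OCT4 (gene Pou5f1) is a transcription factor best known from pluripotent cells. The siRNA gives a transient knockdown, and the Pou5f1 transcript itself was not analysed here. The labels number 3 replicates in each group without saying whether they were separate cultures, so p-values measure only the spread between these arrays.

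MicroRNAs are cut from a folded precursor, and each strand of the stem can be loaded into an Argonaute protein. A loaded strand pairs with messenger RNAs mainly through its seed, bases 2 to 8 from the 5′ end. The miR-10 family is encoded inside the HOX gene clusters, which set positional identity along the body axis, and miR-10a-5p is usually the more abundant strand of its hairpin. In the vessel wall miR-10a is known as a regulator of inflammatory signalling in endothelium and of smooth muscle differentiation from embryonic stem cells.

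The hairpin is encoded on the + strand of mouse chromosome 11 at chr11:96317165-96317274 (RefSeq, GRCm38.p6). The annotation places it inside the Hoxb3 gene, with Hoxb5 and Hoxb6 as the nearest protein-coding genes on one side and Hoxb4 and Hoxb2 on the other. The 110-base hairpin is shown first with both mature strands in capitals, since the results turn on the balance between them. They are separated by a loop of 18 bases.
mir-10a hairpin: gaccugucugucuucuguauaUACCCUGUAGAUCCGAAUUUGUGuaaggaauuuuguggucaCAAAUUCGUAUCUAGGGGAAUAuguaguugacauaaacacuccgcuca

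The mature strands are shown next with their seeds in capitals, beside those of miR-10b, the closest relative, which lies in the HOXD cluster on chromosome 2. The 5p strand occupies chr11:96317186-96317208 and the 3p strand chr11:96317227-96317248.
mmu-miR-10a-5p: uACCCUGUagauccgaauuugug
mmu-miR-10b-5p: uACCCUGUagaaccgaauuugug
mmu-miR-10a-3p: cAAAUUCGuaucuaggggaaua
mmu-miR-10b-3p: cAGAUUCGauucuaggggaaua
The 5p strands of miR-10a and miR-10b share the seed ACCCUGU, which no other of the 1679 mature mouse miRNAs in the table carried. They differ at 1 of 23 bases, U12A, counted from the 5′ end of the mature strand with the base of miR-10a first. The 3p seed AAAUUCG was carried by miR-10a-3p alone. Against miR-10b-3p it differs by A3G, and the strands differ further by U9A and A10U.

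The probes of a strand form a ladder of lengths, and the longest and shortest of each are shown because their responses differed below. Capitals mark the bases complementary to the miRNA, and the leading g lies beyond the 3′ end of the mature sequence.
ASMM10SMR20MIRNA100000788TV1, 5p, longest: gCACAAATTCGGATCTACAGG
ASMM10SMR20MIRNA100000789TV1, 5p, shortest: gCACAAATTCGGATCTA
ASMM10SMR20MIRNA100002175TV1, 3p, longest: gTATTCCCCTAGATACGAATTTG
ASMM10SMR20MIRNA100002179TV1, 3p, shortest: gTATTCCCCTAGATACGAA
All probes of a strand start from its 3′ end, so the 5p probes pair 16 to 20 bases and the 3p probes 18 to 22. They read the same RNA on the same arrays and are not independent observations. Counts of miR-10a probes set beside the share of all miRNA probes are therefore descriptions, not tests of enrichment. Every 5p probe spans base 12 and has 1 mismatch to miR-10b-5p. The 2 shortest 5p probes also have only 1 mismatch to miR-100-5p, a member of the same extended family. The 3p probes have 2 or 3 mismatches to miR-10b-3p and at least 6 to any other mature miRNA. How much of a 5p signal came from miR-10b or miR-100 was not tested, and no probe of either was named here.

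All 10 probes were well above background on all 12 arrays, 120 of 120 values. Signals are given as log2 of the normalized fluorescence, and an arm value is the mean of the 5 probes of that strand on one array. Brightness depends on the probe as well as on the RNA, so the level of one strand is not compared with that of the other, and only the change in their difference between groups is read. Between 7704 and 11759 small RNA probes per array were well above background. The array of siOCT4-DMSO replicate 3 stood apart, with a median signal of 24.1 before normalization against 5.59 to 8.73 on the other arrays. The arrays lay on 2 slides. On slide 1 lay the 6 siNT arrays with replicates 1 and 2 of siOCT4-DMSO, and on slide 2 replicate 3 of siOCT4-DMSO with the siOCT4-POVPC group. None of 13 marker miRNAs listed for smooth muscle, endothelium, blood cells, striated muscle and liver had a named probe, so the labelled cell type was not checked against its markers here.

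In pooled tests the strands shared one response and parted in another. Over both siRNA treatments, POVPC raised miR-10a-3p by 0.62 and miR-10a-5p by 0.42 on the log2 scale. In siNT cells alone, with both groups on slide 1, the changes were 0.41 for 3p (limma adjusted p = 0.355) and 0.22 for 5p (limma adjusted p = 0.667). Over both POVPC and DMSO, OCT4 knockdown lowered miR-10a-3p by a log2 change of −0.49 and left a change of 0.13 for miR-10a-5p that did not pass the test. These pooled tests did not take the slide into account. The siOCT4-POVPC arrays lay on another slide than the siNT arrays and replicates 1 and 2 of siOCT4-DMSO, so the pooled values for POVPC and for knockdown both mix slides. When the slide was added to a joint fit of the 12 arrays, the log2 change of miR-10a-3p with knockdown was −0.61 with DMSO (limma adjusted p = 0.0125) and −0.02 with POVPC (limma adjusted p = 0.967). That of miR-10a-5p was 0.10 with DMSO (limma adjusted p = 0.807) and 0.81 with POVPC (limma adjusted p = 0.042). The slide term rests on siOCT4-DMSO replicate 3. Without that array the pooled change of miR-10a-5p with knockdown was 0.21 and passed the test. Whether knockdown spares miR-10a-5p is thus not settled. The difference between the strands was higher on every siOCT4 array than on every siNT array. In the main fits of 2 groups no single probe of miR-10a passed the adjusted threshold, where 0% to 2.67% of all miRNA probes were called. Some other settings of the fit called miR-10a probes, as given below.

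The 5p strand, which carries the miR-10 family seed, measured 6.41, 6.66 and 6.48 in the siNT-DMSO group, with a mean of 6.52 ± 0.13 (SD, n = 3). After POVPC it measured 6.76, 6.86 and 6.60 in siNT cells, a mean of 6.74 ± 0.13. These groups overlapped. It measured 6.70, 6.53 and 6.13 in the siOCT4-DMSO group, a mean of 6.45 ± 0.29, and the widest spread of the 4 groups came from replicate 3, the array with the high median signal. The siOCT4-POVPC arrays measured 7.05, 7.08 and 7.08, a mean of 7.07 ± 0.02, and lay above all other arrays. From the highest group mean to the lowest the order was siOCT4-POVPC, siNT-POVPC, siNT-DMSO and siOCT4-DMSO, and only the first step of that order was free of overlap.

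The 3p strand measured 5.20, 5.04 and 5.15 in the siNT-DMSO group, with a mean of 5.13 ± 0.08 (SD, n = 3). In siNT-POVPC it measured 5.48, 5.58 and 5.56, a mean of 5.54 ± 0.06, and these were the 3 highest arrays of the series. Its lowest values, 4.56, 4.47 and 4.26, were those of the siOCT4-DMSO group, with a mean of 4.43 ± 0.15. The siOCT4-POVPC arrays lay in between, at 5.23, 5.31 and 5.25, a mean of 5.26 ± 0.04. No group overlapped with another, although siOCT4-POVPC and siNT-DMSO, which were not compared by a fit, lay close together. The top of the order thus differed between the strands, with siOCT4-POVPC highest for 5p and siNT-POVPC highest for 3p.

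The effect of POVPC in cells that kept OCT4 was read from the siNT-POVPC vs. siNT-DMSO groups. Limma called 0 of the 10 miR-10a probes (adjusted p under 0.05, at least 1.5-fold), where it called 0.22% of the 8620 miRNA probes tested. An unadjusted p under 0.05 was reached by 6 of 10, against 9.04% of all probes, and by 0 of 10 together with 1.5-fold, against 2.45%. The methods' t-test with the 1.5-fold limit called 0, against 1.82% of all probes. The 3p arm was 0.41 higher (SE 0.12, 95% interval 0.14 to 0.69, limma adjusted p = 0.355), and all 5 of its probes were without overlap between the groups, where 16.3% of all miRNA probes were. The 5p arm was 0.22 higher (SE 0.13, interval −0.09 to 0.54, limma adjusted p = 0.667), with overlap in 4 of its 5 probes. Neither arm passed the threshold in this comparison. Both groups lay on slide 1.

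OCT4 knockdown without POVPC was read from the siOCT4-DMSO vs. siNT-DMSO groups, and here the values of the strands parted. Limma again called 0 of 10 probes, against 1.39% of all miRNA probes tested. The 5 probes of the 3p strand had an unadjusted p under 0.05, which 8.58% of all probes had, and these 5 also reached 1.5-fold, against 4.81%. The methods' t-test with that limit called 5 of 10, against 3.33% of all probes. The study drew its lists by a rule like this on these arrays, and the names come from them. Such counts for miR-10a are therefore not independent of its naming. The 3p arm was 1.62-fold lower (log2 change −0.70, SE 0.15, 95% interval −1.05 to −0.35, limma adjusted p = 0.0964). All 5 of its probes, which read the same RNA, were lower without overlap, against 14.4% of all probes in either direction. The log2 change of the 5p arm was −0.06 (SE 0.19, interval −0.49 to 0.37, limma adjusted p = 0.938), and its 5 probes ranged from −0.14 to 0.05. With all 12 arrays in one fit the 3p arm was called, at the same change and an adjusted p of 0.00586, in a fit that called 2.46% of all miRNA probes. On slide 1 alone, which leaves out siOCT4-DMSO replicate 3, the change was −0.61 for 3p (limma adjusted p = 0.159 with slide as a block) and 0.10 for 5p, and the latter thus had the opposite sign.

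POVPC in OCT4-deficient cells, the siOCT4-POVPC vs. siOCT4-DMSO groups, gave the largest log2 changes of both strands among the 4 comparisons of groups. The 3p arm was 1.78-fold higher (log2 change 0.83, SE 0.14, 95% interval 0.50 to 1.17, limma adjusted p = 0.139), and the 5p arm was 1.53-fold higher (0.61, SE 0.17, interval 0.21 to 1.01, limma adjusted p = 0.254). Of the 10 probes, 9 were higher without overlap, against 22.4% of all miRNA probes in either direction. Limma called 0 of 10 probes and 0% of all miRNA probes in this comparison. An unadjusted p under 0.05 was reached by 9 of 10, against 12.7% of all probes, and by 8 together with 1.5-fold, against 5.13%. The methods' t-test with that limit called 8 of 10, against 3.06% of all probes. As for knockdown with DMSO, these counts are not independent of the study's lists, which named miR-10a by a like rule. Without the bright siOCT4-DMSO replicate 3 the changes were 0.75 for 3p and 0.45 for 5p. That array was the one siOCT4-DMSO array on slide 2, where the changes were 1.00 and 0.93 against it alone. With slide as a block in the fit of the 2 groups these changes had limma adjusted p = 0.0119 for 3p and 0.0156 for 5p. On slide 2 that fit sets 3 arrays against this 1 bright array. Its calls, for miR-10a and for all miRNA probes, therefore rest on that array.

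Knockdown under POVPC, the siOCT4-POVPC vs. siNT-POVPC groups, gave log2 changes of opposite sign for the strands. The 5p arm was 0.33 higher (SE 0.11, 95% interval 0.07 to 0.60, limma adjusted p = 0.310), and the 3p arm stood at a log2 change of −0.28 (SE 0.10, interval −0.52 to −0.04, limma adjusted p = 0.364). Neither arm overlapped between the groups. All 5 probes of the 3p strand were lower and 4 of 5 of the 5p strand higher without overlap, against 18.7% of all miRNA probes in either direction. Limma called 0 of 10 probes and 2.67% of all miRNA probes, whereas an unadjusted p under 0.05 was reached by 7 of 10 and 11.2% of all probes. Together with 1.5-fold it was reached by 0 of 10 and 4.36% of all probes, and the methods' t-test with that limit called 0 of 10 and 3.74% of all probes. These 2 groups lay on different slides, so slide and knockdown cannot be told apart in this comparison. When the slide was added to the joint fit of the 12 arrays, where the slide term rests on siOCT4-DMSO replicate 3, the change of 3p was −0.02 (limma adjusted p = 0.967) and that of 5p 0.81 (limma adjusted p = 0.042).

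Whether the POVPC effect differed with OCT4 was tested on all 12 arrays. The effect was 0.39 larger in siOCT4 than in siNT cells for 5p (SE 0.22, 95% interval −0.08 to 0.87, limma adjusted p = 0.961) and 0.42 larger for 3p (SE 0.17, interval 0.05 to 0.80, limma adjusted p = 0.945). Limma called 0 of 10 probes and 0% of all probes. An unadjusted p under 0.05 was reached by 6 of 10 probes against 5.08% of all, and together with 1.5-fold by 1 of 10 against 3.53%. A difference between the POVPC effects was thus not shown, and the intervals leave room for one of up to 0.87 on the log2 scale. The values depended on siOCT4-DMSO replicate 3 and on the slide. Without that array the 5p value was 0.23 (limma adjusted p = 0.904), and with slide as a block it was 0.71 (limma adjusted p = 0.0881), beside 0.59 for 3p (limma adjusted p = 0.0985).

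The difference between the arms, 5p minus 3p, cancels whatever scales both strands alike on an array. It measured 1.21, 1.61 and 1.34 in siNT-DMSO and 1.28, 1.27 and 1.04 in siNT-POVPC. In siOCT4 cells it measured 2.15, 2.05 and 1.88 with DMSO and 1.82, 1.77 and 1.83 with POVPC. All 6 siOCT4 arrays, from 1.77 to 2.15, lay above all 6 siNT arrays, from 1.04 to 1.61. Between siOCT4-POVPC and siNT-POVPC the difference was 0.61 higher (SE 0.11, 95% interval 0.34 to 0.88, limma adjusted p = 0.0409) and was called. Between siOCT4-DMSO and siNT-DMSO it was 0.64 higher (SE 0.17, interval 0.25 to 1.03, limma adjusted p = 0.208) and was not. The call under POVPC was lost when any one of the 6 arrays was left out, with changes of 0.53 to 0.65 and adjusted p from 0.0843 to 0.153. These groups lay on separate slides, and the call was also lost with slide as a block in the 12-array fit (0.83, limma adjusted p = 0.0587), with replicate number as a block (0.61, limma adjusted p = 0.175) and without the filter on dim probes (limma adjusted p = 0.0608). Between POVPC and DMSO the log2 change of the difference was −0.19 in siNT cells (limma adjusted p = 0.743, and −0.28 to −0.076 with single arrays left out) and −0.22 in siOCT4 cells (limma adjusted p = 0.526).

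With 3 arrays against 3 a test of one value cannot give an exact p under 0.1, so each effect was also pooled over both levels of the other factor and tested by exact permutation of the labels within each level, two-sided, with 400 arrangements and a smallest possible p of 0.005. The 6 pooled tests were adjusted together. Knockdown lowered the 3p arm by a log2 change of −0.49 (exact permutation p = 0.005, adjusted p = 0.01) and raised the difference between the arms by 0.62 (p = 0.005, adjusted p = 0.01, exact permutation). Its effect on the 5p arm was 0.13 (exact permutation p = 0.285, adjusted p = 0.285). POVPC raised the 3p arm by 0.62 (exact permutation p = 0.005, adjusted p = 0.01) and the 5p arm by 0.42 (exact permutation p = 0.01, adjusted p = 0.015). It changed the difference between the arms by −0.20 (exact permutation p = 0.04, adjusted p = 0.048), a value that was −0.08 when each array was scaled to its 75th percentile (adjusted p = 0.522) and that did not pass the test when any one of 8 of the arrays was left out. On slide 1 alone the knockdown effect was −0.61 on 3p and 0.71 on the difference (exact permutation, adjusted p = 0.2 for each), from 2 siOCT4-DMSO arrays against 3 siNT-DMSO arrays, where no exact p under 0.1 is possible. Without siOCT4-DMSO replicate 3 the knockdown effect on the 5p arm was 0.21 and passed the test (exact permutation, adjusted p = 0.02).

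The 10 probes differed in how closely they followed their arm. The 3p probes kept close together in every comparison, for example between −0.59 and −0.81 for knockdown with DMSO and between 0.69 and 0.90 for POVPC in siOCT4 cells. For POVPC in siNT cells they lay between 0.34 and 0.46, and for knockdown with POVPC between −0.31 and −0.24. For the effect of POVPC the 5p probes spread roughly with their length, from 16 to 20 paired bases. For knockdown they did not follow that order. After POVPC in siOCT4 cells the log2 changes were 0.87, 0.96, 0.71, 0.53 and −0.01 from the probe of 20 paired bases down to that of 16. In siNT cells they were 0.44, 0.33, 0.28, 0.09 and −0.04 in the same order. Under knockdown with POVPC they were 0.31, 0.48, 0.44, 0.33 and 0.09, and with DMSO −0.12, −0.14, 0.01, −0.11 and 0.05. The longest 4 thus stood above 0 in both POVPC comparisons, while the shortest, shown above beside the longest, stayed between −0.04 and 0.09 in all 4 comparisons of groups. It measured 4.24 to 4.94 over the 12 arrays, the dimmest of the 5p ladder, against 8.49 to 9.57 for the longest. It is 1 of the 2 probes with only 1 mismatch to miR-100-5p. Probe length, brightness and similarity to other miRNAs move together in this ladder, and their part in the spread was not tested.

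At the lengths the strands share, 18 to 20 paired bases, every 5p probe lay above its 3p counterpart in both knockdown comparisons. The 5p minus 3p result was therefore repeated on probes of equal length. With only the probes of 18, 19 and 20 paired bases from each strand, the difference was 0.60 higher after knockdown with DMSO (limma adjusted p = 0.288) and 0.68 higher with POVPC (limma adjusted p = 0.0296), and knockdown raised it by 0.64 in the pooled test (exact permutation, adjusted p = 0.0075). With probes of like brightness, mean log2 signal between 5 and 6.5, the pooled change was 0.70 (exact permutation, adjusted p = 0.01). The POVPC effect on the difference did not hold on probes of equal length, where the pooled change was 0.00092 (exact permutation, adjusted p = 0.99), and both strands rose by 0.60 (exact permutation, adjusted p = 0.0075 for each). With another background correction, which also added an offset of 50 to every signal and so compressed dim probes, the knockdown effect on the difference was 0.19 (exact permutation, adjusted p = 0.015).

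Over the 12 arrays the arms were correlated at a Pearson r of 0.56 (permutation p = 0.0607, adjusted p = 0.121 over 8 such tests) and a Spearman rho of 0.57 (permutation p = 0.0556, adjusted p = 0.121), neither of which passed 0.05. Without the 2 arrays farthest from the 5p median, siOCT4-DMSO replicate 3 and siOCT4-POVPC replicate 3, r was 0.31 (permutation p = 0.387, adjusted p = 0.387) and rho 0.44 (permutation p = 0.204, adjusted p = 0.28). The deviations of the arms from their group means gave r = 0.55. Within the 6 siOCT4 arrays r was 0.96 (permutation p = 0.00267, adjusted p = 0.0214), with a rho of 0.94 (permutation p = 0.0166, adjusted p = 0.0664), and within the 6 siNT arrays r was 0.60 (permutation p = 0.21, adjusted p = 0.28) and rho 0.49 (permutation p = 0.356, adjusted p = 0.387). Each set of 6 holds DMSO and POVPC arrays, so these values include the shared rise with POVPC.

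The likeness of other miRNAs was set against each arm over the 12 arrays, for the 108 other miRNAs with a name in the study's lists. For 5p the closest were miR-199a-3p (r = 0.95), abundant in mesenchymal cells, miR-183-5p (r = 0.91), from a cluster known in sensory organs, and miR-691 (r = 0.89). For 3p they were miR-98-5p (r = 0.99), a member of the let-7 family, miR-455-3p (r = 0.96) and miR-574-3p (r = 0.96). No miRNA stood among the first 3 of both arms. The median r over the 108 miRNAs was 0.02 with 5p and 0.57 with 3p. All values share the 12 arrays and their normalization and come from a list the study selected, so they are given as a description. miR-98-5p, for instance, measured 5.02 ± 0.06 (SD, n = 3) without knockdown or POVPC, 5.35 ± 0.04 in the siNT-POVPC group, 4.38 ± 0.09 in the siOCT4-DMSO group and 5.19 ± 0.07 in the siOCT4-POVPC group.

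Among the HOX-cluster miRNAs, 2 besides miR-10a had a name, miR-196a-1-3p and miR-196a-2-3p, passenger strands of miR-196a hairpins. Like miR-10a, they could be named only because the study had listed them on these arrays. All 5 probes of miR-196a-1-3p were called lower by limma in both knockdown comparisons, where 0 of 10 miR-10a probes were called. Of all miRNA probes, 1.39% were called with DMSO and 2.67% with POVPC. The mean signal of miR-196a-1-3p was 8.84 ± 0.35 (SD, n = 3) for the siNT-DMSO arrays and 2.90 ± 0.74 for the siOCT4-DMSO arrays. In siOCT4-POVPC only 1 of its 15 values was well above background, so its level there is a bound. Of the 3 tested probes of miR-196a-2-3p, 1 was called lower with DMSO and 2 with POVPC. In each comparison 1 of the 3 was higher, by 0.32 with DMSO and 0.20 with POVPC. In siOCT4-POVPC 0 of the 9 values of miR-196a-2-3p were well above background. With DMSO the miR-10a-3p arm stood at a log2 change of −0.70, against −4.85 to −7.07 for the probes of miR-196a-1-3p.

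Besides miR-10a, 2 hairpins had both strands named, miR-322 and miR-299a, and their 5p minus 3p difference serves as a description of how such differences behaved on these arrays. For miR-322 the difference was 2.09 ± 0.14 (SD, n = 3) in siNT-DMSO and 2.00 ± 0.11 in siOCT4-DMSO, a log2 change of −0.10, and under POVPC the change with knockdown was −0.01. For miR-299a the log2 change with knockdown was 1.58 with DMSO and 2.42 with POVPC, and all 6 siOCT4 arrays lay above all siNT arrays, as they did for miR-10a. Of the 3 hairpins that could be examined, 2 thus had siOCT4 and siNT arrays without overlap, and the strands of all 3 were named only because the study had listed them on these arrays.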

How the data were processed

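Total RNA (100 ng) was dephosphorylated, and Cy3 was ligated to its 3′ ends, before hybridization to one-colour arrays. The deposited files hold the intensity of each spot from Agilent Feature Extraction 11.0.1.1, per the labels, as a processed signal with local background subtracted. A deposited table holds the log2 values that the authors had quantile-normalized in GeneSpring, and it was used as an alternative only. What its values were floored on is not given in the sources used here.

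Here, spots of a probe were averaged without outlier spots, and processed signals were quantile-normalized over 12 arrays and taken to log2 with a floor of 1. The 8620 miRNA probes well above background on at least 3 arrays were tested with limma 3.58.1 in R 4.3.3 on the 6 arrays of 2 groups, with Benjamini-Hochberg adjustment over all of them. A call needed an adjusted p under 0.05 and a 1.5-fold change. For the arms, 1 row per arm and 1 for their difference replaced the member rows. Pooled effects and correlations were tested by permutation (SciPy 1.17.1, correlations with 100000 resamples). The methods' t-test stands for the study's unpaired test with equal variances assumed, at 1.5-fold and an unadjusted p. The fits were tested on simulated data. The number of arrays limits the precision.

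Groups followed the source names. The description of 9 samples names non-target siRNA and DMSO throughout and was not followed. Slides were inferred from scan times and array positions. Members, lists and tests were chosen with earlier results of these data known. Named were all members, the 3 miRNAs most like each arm, HOX-cluster miRNAs and hairpins with both strands named. Of these, the hairpins, the matched probe sets and the omission of the shortest 5p probe were chosen after seeing the data. Names of 520 probes (110 miRNAs) came from the study's lists, and sequences from RefSeq. Alternatives covered background correction, scaling, floor, filter, samples in the fit, slide, replicate number, test, arm summary and each array left out.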

Additional observations from a re-analysis of the deposited data

How the results depend on the processing

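Of the pooled effects, the fall of the 3p arm and the rise of the difference between the arms with knockdown, and the rise of both arms with POVPC, kept their direction and passed the exact permutation test under every scaling, background correction, probe set and left-out array tried. The exception was slide 1 alone, where the knockdown values were −0.61 for 3p and 0.71 for the difference and the POVPC values 0.22 for 5p, 0.41 for 3p and −0.19 for the difference, and where few arrays allow no exact p under 0.1. No other pooled setting took the slide into account, although siOCT4-POVPC and siNT-POVPC lay on different slides. With slide in the 12-array limma fit the 3p change with knockdown under POVPC was −0.02. The pooled POVPC effect on the difference was −0.078 with 75th-percentile scaling, 0.11 with normexp background correction (offset 50), 0.00092 with probes of equal length, and −0.095 without the shortest 5p probe. Leaving out single arrays gave −0.25 to −0.15 for it, 0.073 to 0.21 for the knockdown effect on 5p, −0.52 to −0.45 on 3p and 0.58 to 0.68 on the difference, and 0.34 to 0.48 and 0.58 to 0.65 for the POVPC effects on 5p and 3p.

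In siOCT4-DMSO vs. siNT-DMSO the 5p arm turned to 0.10 with slide as a block (in 2 groups or in 12 arrays) and to 0.012 with the median over probes. It ranged from −0.19 to 0.10 over left-out arrays, above 0 without siNT-DMSO replicate 2 or siOCT4-DMSO replicate 3. The 3p arm was called at −0.70 with 12 arrays in one fit, at −0.61 when slide was added to that fit, at −0.71 in the authors' table, and at −0.70 by the methods' t-test and by limma without adjustment. The difference was called at 0.64 with 12 arrays in one fit, by the methods' t-test and by limma without adjustment, and at 0.71 with slide added to the 12-array fit.
In siOCT4-POVPC vs. siOCT4-DMSO the 5p arm was called at 0.93 with slide as a block in either fit, and at 0.61 by the methods' t-test and limma without adjustment. The 3p arm was called at 0.88 with 75th-percentile scaling over all small RNA probes, at 0.83 with 12 arrays in one fit, by the methods' t-test and by limma without adjustment, and at 1.00 with slide as a block in either fit. The difference turned to 0.18 with normexp and to 0.041 with probes of equal length.
In siOCT4-POVPC vs. siNT-POVPC the 5p arm was called at 0.81 and the 3p arm stood at −0.02 with slide in the 12-array fit. With normexp the difference was 0.27 (limma adjusted p = 0.0012) and lost its call by the 1.5-fold limit alone. It also lost its call at 0.61 without a filter and by the methods' t-test after adjustment, and at 0.83 with slide. Over left-out arrays it ranged from 0.53 to 0.65.
In siNT-POVPC vs. siNT-DMSO the difference turned to 0.030 with normexp and ranged from −0.28 to −0.076 over left-out arrays. The difference of the POVPC effects was 0.71 for 5p and 0.59 for 3p with slide, and 0.23 to 0.52 and 0.34 to 0.49 over left-out arrays, lowest without siOCT4-DMSO replicate 3. For the difference between the arms it turned to 0.15 with normexp, 0.10 with either 75th-percentile scaling, 0.12 with slide, 0.081 with probes of equal length and 0.059 without the shortest 5p probe, and ranged from −0.14 to 0.059 over left-out arrays. The offset used with normexp compresses dim probes, but its part in these changes was not tested, nor were other causes.

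The number of miR-10a probes called was 0 of 10 in each main limma fit. For siOCT4-DMSO vs. siNT-DMSO the count of all miRNA probes called, of 8620 tested, stands in brackets. There it was 1 with a floor of 8 (61), 5 with 12 arrays (212), 4 with slide added (217) and 3 in the authors' table (141). The methods' t-test called 5 (287), and limma without adjustment called 5 (415). In siOCT4-POVPC vs. siOCT4-DMSO it was 2 with normexp, 6 and 1 with the 75th percentile over all and over detected probes, 2 with a floor of 8, 5 with probes detected on all arrays, 7 with 12 arrays, 9 with slide in either fit, and 8 by the methods' t-test and by limma without adjustment. With slide in the 12-array fit it was 3 in siOCT4-POVPC vs. siNT-POVPC and 3 in the difference of the POVPC effects, where limma without adjustment called 1. Leaving out an array called 0 everywhere. For the other comparisons the counts of all miRNA probes under the same settings follow. They are out of 8620 tested probes, or 5087 with probes detected on all arrays and 9709 without a filter.

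Of all miRNA probes, 19 in siNT-POVPC vs. siNT-DMSO became 1 with normexp, 10 and 32 with the 75th percentiles, 7 with a floor of 8, 6 with probes detected on all arrays, 3 without a filter, 0 with 12 arrays or slide, 33 in the authors' table, 157 by the methods' t-test (0 adjusted) and 211 by limma without adjustment, and 0 to 4 over left-out arrays. The 120 in siOCT4-DMSO vs. siNT-DMSO became 36 with normexp, 61 with a floor of 8, 212 with 12 arrays, 217 with slide added, 287 by the methods' t-test (15 adjusted) and 415 without adjustment, and 72 to 167 over left-out arrays. The 0 in siOCT4-POVPC vs. siOCT4-DMSO became 13 with normexp, 94 and 39 with the 75th percentiles, 13 with a floor of 8, 30 with probes detected on all arrays, 50 with 12 arrays, 859 with slide added, 1016 with slide in 2 groups, 264 by the methods' t-test (2 adjusted) and 442 without adjustment, and 0 to 1 over left-out arrays. The 230 in siOCT4-POVPC vs. siNT-POVPC became 50 with normexp, 646 with slide, 149 by the adjusted t-test and 376 without adjustment. The 0 in the difference of the POVPC effects became 1 with a floor of 8, 370 with slide and 304 without adjustment. The methods' t-test was not run for the difference of the POVPC effects.

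Same-numbered replicates deviated together with r from −0.38 to 0.56 over 12 pairs, above 0.1 in 4. The numbers were not taken as pairs. These values cannot exclude a pairing, since deviations from the mean of 3 arrays depend on one another. With the replicate block no miR-10a probe was called, the difference between the arms in siOCT4-POVPC vs. siNT-POVPC stayed at 0.61 and lost its call (limma adjusted p = 0.175), and the 19 calls in siNT-POVPC vs. siNT-DMSO became 5. Leaving out an array leaves a group of 2, and 3 arrays in a group limit what these tests can find.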
